A study of Mus musculus with 18 samples.

Results

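The nuclear-encoded respiratory chain genes were examined in clonal mouse oligodendrocyte progenitor cells (OPCs) with and without Thap1 and during their differentiation. They were taken as every gene with a protein-coding transcript whose symbol marks a subunit family of complexes I to V (Nduf, Sdh, Uqcr, Cox4 to Cox8 and Atp5 symbols), and 93 of 22305 genes with protein-coding transcripts met this rule. The 18 libraries came from 6 clones, of which D7, D3 and E8 were controls and 3F, D6 and 7F lacked Thap1 (null). Every clone was sampled on day 0 as OPCs growing with PDGF-AA, and on days 2 and 4 of differentiation (DIV2 and DIV4) in medium that held the thyroid hormone T3 at 40 µg/ml. All clones are OPC lines derived from primary neural stem cells. The clone is the replicate. The p-values of the main fit rest on a spread within groups that is pooled over all 18 libraries. That fit treats the libraries of a clone as independent. Neither the strain nor the way the null clones were made is given in the sources used here. THAP1 is a zinc finger transcription factor whose gene is mutated in an inherited dystonia.

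The respiratory chain lies in the inner mitochondrial membrane. Complexes I (NADH dehydrogenase) and II (succinate dehydrogenase) pass electrons to ubiquinone, complex III (the cytochrome bc1 complex) passes them to cytochrome c, and complex IV (cytochrome c oxidase) passes them to oxygen. Complex V is the ATP synthase, which uses the proton gradient that complexes I, III and IV build. Most subunits are encoded in the nucleus and a few in mitochondrial DNA, and oligodendrocytes have a high energy demand while they build myelin.

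Levels are given as rescaled TPM: TPM values (transcript abundances scaled to a fixed total per library) summed over the protein-coding transcripts of a gene and divided by a factor per library that sets the typical protein-coding gene equal across libraries. Of the 93 genes, 83 had a mean of at least 1 over the 18 libraries and were tested among 10400 such genes. These 83 were 36 subunits of complex I, 4 of complex II, 8 of complex III, 12 of complex IV, 14 of complex V, 7 complex I assembly factors (Ndufaf genes) and 2 Atp5-named genes that are not counted here as subunits (Atp5s and Atp5sl). The 10 genes under 1 were Atp5g2, the pseudogene-named Atp5l-ps1 and 8 alternative subunits of complex IV.

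Some libraries stood apart. In the 3 control OPC libraries the protein-coding transcripts held 5.053 to 9.003% of the TPM, against 19.1 to 38.8% in the other 15, so the rescaling factors there were 0.127 to 0.324, against 0.727 to 2.05 elsewhere. Control clone D7 at DIV4 had a summed level of 6 oligodendrocyte markers (Mbp, Mag, Mog, Mobp, Cnp and Myrf) of 6696, against 1019 to 1270 in the other 2 controls and 489 to 1149 in the nulls. Its summed level of 5 astrocyte markers was 1.46, against 85.9 to 273 in the other 5 DIV4 libraries. Most of the sum in those 5 was Gfap (78.4 to 234, against 0.179 in D7). Summed markers of neurons (0.472 to 5.46), microglia (0.167 to 4.53) and mesenchymal cells (0.0123 to 1.03) were low in all 18 libraries, and all 5 OPC markers were above 1 in every OPC and DIV4 library. In bulk RNA, fewer cells of a type and less RNA per cell cannot be told apart. Thap1 itself was at 1.93 to 4.38 in the 9 control libraries and 0.196 to 0.772 in the 9 null libraries, with no overlap.

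The 5 complexes were expressed at different levels and kept broadly similar proportions, with complex IV relatively lower in the null clones at DIV4. Mean rescaled TPM over the libraries ran from 8.48 to 161 among complex I subunits, from 36.9 to 74.1 for complex II, from 46.6 to 240 for complex III, from 55.0 to 333 for complex IV and from 34.9 to 302 for complex V. These levels are per transcript length, so they can be set side by side between genes. The level of a complex in a library was then taken as the mean log2(rescaled TPM + 1) over its tested subunits. Over all 74 subunits this level ran from 5.79 in control D3 at DIV4 to 6.66 in null D6 OPCs. Relative to that overall level, complex I lay between -0.65 and -0.58 in all 18 libraries. The overall level is a mean over the same subunits, 36 of them in complex I, which ties complex I closely to it. Complex III lay between 0.21 and 0.46, complex IV between 0.82 and 1.09 and complex V between 0.61 and 0.81. Complex IV was at 0.82 to 0.90 in the null DIV4 libraries and at 0.93 or above in every other library. Complex II, which takes part in the citric acid cycle as well and has only 4 subunits, had the widest range, from -0.69 to -0.27. The plot of complex levels shows the clones moving in parallel across complexes.

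**Figure D1:**
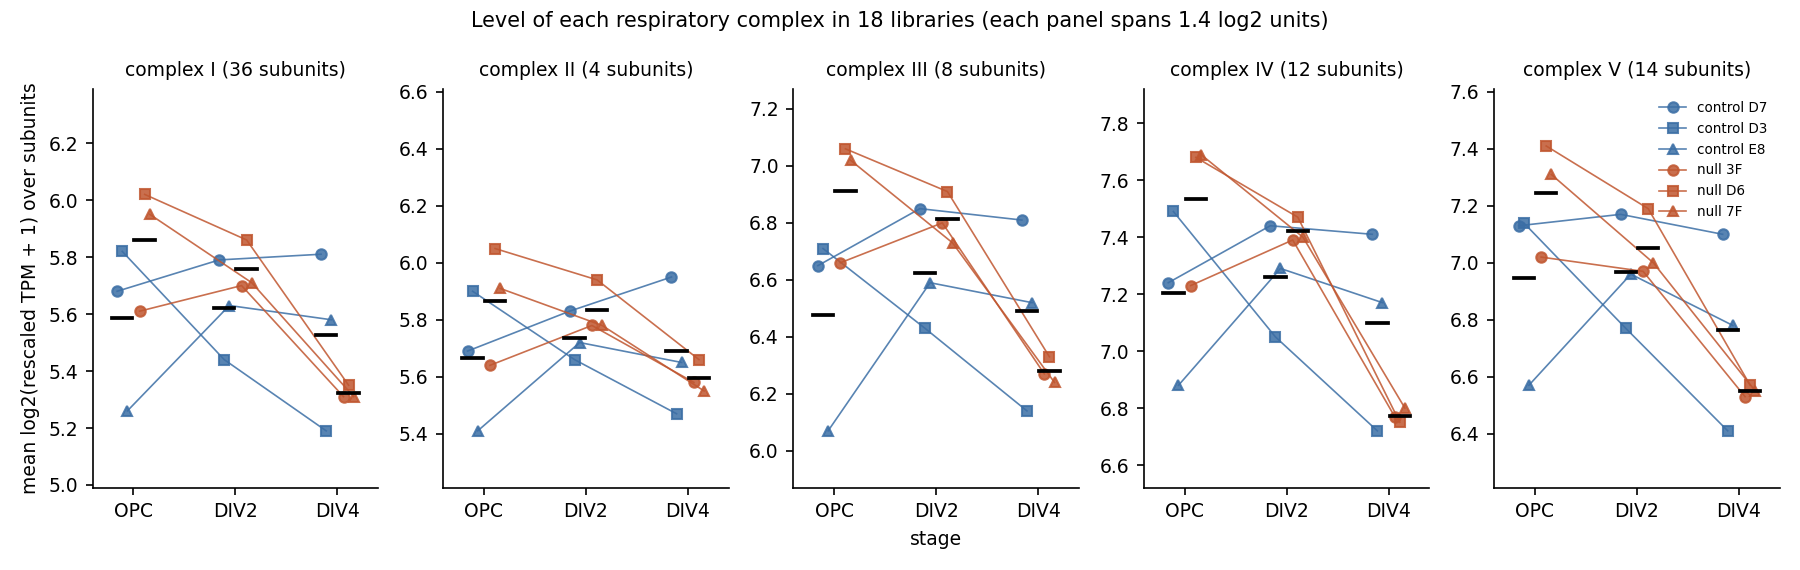
Mean log2(rescaled TPM + 1) over the tested subunits of each complex (y axis) by stage (x axis), with 1 point per library, lines joining the stages of a clone and black bars for group means. Control OPCs spread widely (complex I 5.26 to 5.82), and the 3 null clones end close together at DIV4 (complex I 5.31 to 5.35).

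In OPCs, the null clones had higher levels of 8 members and a lower level of 1. Of all genes tested, 5.92% were called higher and 5.95% lower (limma, Benjamini-Hochberg adjusted p under 0.05), and 8 of 83 members higher is close to that background. The median log2 change was 0.28 over the members and 0.04 over all genes, and 67 of 83 members had a positive change, against 53.9% of all genes. By complex, the median change was 0.25 for complex I, 0.19 for complex II, 0.43 for complex III, 0.28 for complex IV and 0.38 for complex V. The 8 members were Ndufb4, Ndufa5, Ndufa9 and Ndufc1 (accessory subunits of complex I), Uqcr10 (a small subunit of complex III), Cox7a2 and Ndufa4 (complex IV) and Atp5s.

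Uqcr10 stood at 187, 131 and 72.3 in control D7, D3 and E8 OPCs and at 233, 285 and 285 in null 3F, D6 and 7F OPCs. All null values were above all control values. Such non-overlap was a condition for naming most genes, and 25.8% of all genes tested and 21.7% of members had it in OPCs. The means of Uqcr10 were 130 ± 57.3 and 268 ± 29.8 (SD, n = 3). The log2 change was 1.13 ± 0.32 (SE), with an adjusted p of 0.0347 in limma. Cox7a2, the widely expressed form of a small complex IV subunit, was at 101, 115 and 71.3 in control OPCs and at 133, 198 and 207 in null OPCs, again without overlap. Its log2 change was 0.90 ± 0.22 (adjusted p = 0.0164, limma). Atp5s is a low-expressed gene once named as an ATP synthase coupling factor. It was at 1.79, 3.86 and 0.662 in control OPCs and at 8.91, 4.19 and 10.1 in null OPCs, a log2 change of 1.56 ± 0.34 (adjusted p = 0.0101, limma). The other 4 higher members outside Ndufb4 ran from 0.62 (Ndufa9) to 0.83 (Ndufa5), and only Ndufa4 had overlapping groups.

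These OPC calls depended on single clones and on the scaling. With the deposited TPM 83 members were higher and 0 lower, but so were 87.9% of all genes (0.206% lower). With the protein-coding total held equal 45 were higher and 0 lower (20.9% and 1.49% of all genes). Control E8 had the lowest overall subunit level of all OPC libraries (5.86, against 6.25 to 6.66 in the other 5), and without it only Ndufb4 and Ndufs5 were called (5.12% of all genes in either direction). Without null 7F no member was called (1.72%), without null 3F 2 were (Cox7a2 and Ndufb4, 5.05%) and without null D6 3 (6.31%). Without control D7 there were 16 (21.0%) and without control D3 25 (18.1%). A fit on the 6 OPC libraries alone called 0 members, with 0.394% of all genes higher and 0.5% lower. The summed OPC markers were lower in the null OPCs (370 to 476) than in the control OPCs (559 to 767). Taken singly, only Cspg4 lay apart (4.52 to 11.5 in nulls, 11.6 to 26.7 in controls). The part of these markers in the OPC differences was not tested.

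The only member called at all 3 stages was Ndufs5, an accessory subunit of complex I, which was lower in the null clones each time. Its level was 106, 96.0 and 75.4 in control D7, D3 and E8 OPCs and 36.9, 57.3 and 52.2 in null 3F, D6 and 7F OPCs. At DIV2 it was 119, 92.0 and 109 in controls and 51.6, 60.5 and 49.6 in nulls. At DIV4 it was 115, 77.3 and 97.6 in controls and 44.7, 44.2 and 40.5 in nulls. At no stage did the groups overlap. In OPCs, DIV2 and DIV4 taken singly, this held for 25.8%, 33.2% and 28.4% of all genes tested. The log2 changes were -0.92 in OPCs, -0.97 at DIV2 and -1.13 at DIV4, each ± 0.19 (SE), with adjusted p of 0.00693, 0.00930 and 0.00298 in limma. With the deposited TPM, of which protein-coding transcripts held a smaller share in control OPCs, the OPC change was 1.15.

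Ndufs5 has a processed pseudogene in the genome, BC002163, and 2 stretches are shown because they are nearly the same. The deposited transcript that carries the BC002163 values is not in GENCODE M21, so its own sequence was not compared. The M21 sequence of BC002163 holds 26.5% of the 31-base words of Ndufs5. Ndufs5 lies on chromosome 4 (GRCm38, chr4:123712710-123718202, minus strand) and BC002163 on chromosome 16 (plus strand). The 319 bases of the GENCODE M21 transcript of BC002163 pair without a gap with the coding part of Ndufs5 and differ at 2 positions, T81C and A105G, counted from 1 at the first coding base with the base of Ndufs5 first. The first 216 coding bases of Ndufs5, which lie in 1 exon (chr4:123715864-123716079) and the matching bases of BC002163 (chr16:42955631-42955846) are given 5′ to 3′ in transcript direction, with the differing bases in capitals.
Ndufs5: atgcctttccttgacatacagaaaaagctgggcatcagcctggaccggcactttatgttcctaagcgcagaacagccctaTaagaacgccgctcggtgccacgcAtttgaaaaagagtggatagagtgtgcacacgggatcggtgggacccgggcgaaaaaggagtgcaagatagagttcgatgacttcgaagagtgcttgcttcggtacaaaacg
BC002163: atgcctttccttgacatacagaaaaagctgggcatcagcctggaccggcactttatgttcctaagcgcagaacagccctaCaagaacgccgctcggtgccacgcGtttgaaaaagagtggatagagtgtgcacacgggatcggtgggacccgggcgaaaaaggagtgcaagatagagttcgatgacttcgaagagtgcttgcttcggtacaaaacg

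BC002163 showed the opposite pattern to Ndufs5. It was at 0.0311, 3.64 and 0.0662 in control OPCs and at 54.5, 71.9 and 67.9 in null OPCs. In controls it was at most 0.490 at DIV2 and 0.264 at DIV4, whereas the null clones had 58.0 to 69.8 and 47.9 to 56.2. Its log2 changes in a fit over genes of all biotypes were 5.22, 5.68 and 5.59, with adjusted p of 2.03e-06, 9.23e-07 and 1.17e-06 in limma. Adding BC002163 to Ndufs5 gave 93.7 ± 16.1 in the OPCs of control clones and 114 ± 19.8 in those of null clones (SD, n = 3). At DIV2 it was 107 ± 13.4 and 117 ± 11.3, and at DIV4 it was 96.9 ± 19.1 and 93.8 ± 6.05. For the sum the log2 changes were 0.27 (95% interval -0.11 to 0.66), 0.14 (-0.25 to 0.52) and -0.03 (-0.41 to 0.35), and none was called (adjusted p = 0.332, 0.783 and 0.948, limma). The lower Ndufs5 level and the higher BC002163 level therefore cancelled in the sum within these intervals. How the authors' quantification divided reads between such copies is not given in the sources used here, and its part in the difference was not tested.

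**Figure D2:**
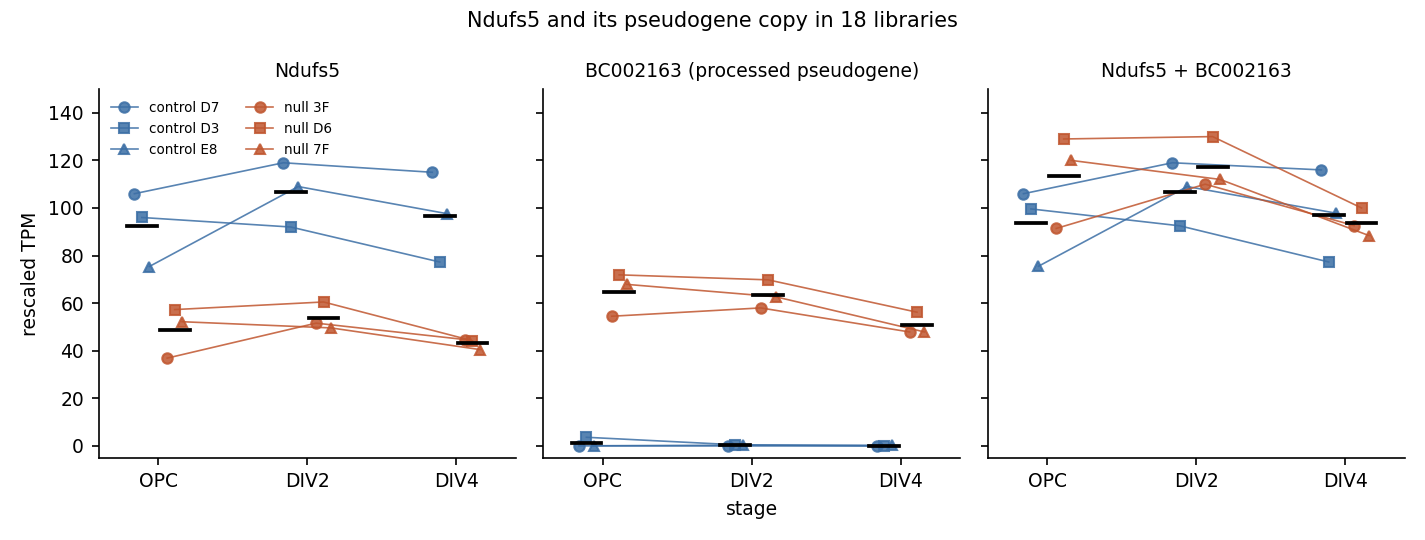
Rescaled TPM (y axis) of Ndufs5, of its processed pseudogene BC002163 and of their sum by stage (x axis), 1 point per library, lines joining the stages of a clone, black bars for group means. Ndufs5 is lower and BC002163 higher in every null library than in every control library, and the sums overlap.

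Ndufb4, another accessory subunit of complex I, also has a highly similar copy. Its own level was 10.1, 13.6 and 5.05 in control OPCs and 19.2, 30.8 and 23.8 in null OPCs, a log2 change of 1.34 ± 0.26 (adjusted p = 0.00515, limma). The groups did not overlap. The processed pseudogene Ndufb4c, which holds 38.3% of the 31-base words of Ndufb4, stood at 58.5 to 99.4 in the 6 OPC libraries and was thus the more abundant of the pair. With it added, the means were 91.1 ± 24.1 and 109 ± 20.7 (SD, n = 3), the log2 change was 0.27 (95% interval -0.17 to 0.72) and the call was lost (adjusted p = 0.406, limma).

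Other members shared sequence with other genes as well. Of the 93 genes, 36 shared at least 10% of their 31-base words with transcripts of other genes, and 21 of these had a pseudogene as partner. The share over all genes was not counted. Not all sharing was with a copy. Atp5g1 shared words with 3020 genes, and Atp5j shared 10.9% of its words with the protein-coding gene Gabpa. The most extreme case was Atp5g2, 1 of 3 genes for the c subunit of the ATP synthase rotor. Atp5g2 was at most 0.0324 in any library, while its pseudogene Gm10231 was at 123 to 335. The GENCODE M21 sequence of Gm10231 holds all of the 31-base words of Atp5g2. The deposited transcript that carries the Gm10231 values is not among the M21 transcripts compared, so its own sequence was not examined. The other 2 genes for the c subunit, Atp5g1 and Atp5g3, averaged 105 and 110. Values of all these genes are uncertain to the extent that reads could be assigned to another gene. When every member was summed with its pseudogene copies, 7 members were higher and 0 lower in null OPCs (5.91% and 5.94% of all genes), 0 were lower at DIV2 (1.24%) and 2 were lower at DIV4 (2.34%).

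At DIV2, Ndufs5 was the only member called (0 higher, 1 lower), with 1.93% of all genes called higher and 1.25% lower. The median change was 0.10 over the members and -0.01 over all genes. The Ndufs5 call was lost without null 3F or without null 7F. The nuclear-encoded subunits listed here as core, not all of which carry catalytic sites, differed by at most 0.27 on the log2 scale. Ndufs1 and Ndufv1 of complex I had log2 changes of -0.08 and 0.10, Sdha and Sdhb of complex II -0.05 and 0.27, Uqcrc1 and Uqcrfs1 of complex III 0.05 and -0.06, Cox4i1 and Cox5a of complex IV 0.08 and 0.27, and the ATP synthase subunits Atp5b and Atp5a1 -0.04 and 0.02. None of these 10 was called between genotypes at any stage.

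At DIV4, 3 members were lower in the null clones and none was higher, with 3.14% of all genes called higher and 2.35% lower. The median change was -0.17 over the members and -0.01 over all genes, and 63 of 83 members had a negative change. Complex IV had the lowest median (-0.30), followed by complex III (-0.25), complex I (-0.19), complex V (-0.17) and complex II (-0.09). With quantile normalization the split was 3 higher and 6 lower (4.34% and 3.07% of all genes). Beside Ndufs5, the members called were Cox7c, a small nuclear-encoded subunit of complex IV, and Ndufa11, a membrane subunit of complex I.

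Cox7c was at 82.0, 38.4 and 65.2 at DIV4 in the controls (D7, D3, E8) and at 27.3, 27.8 and 22.2 in null 3F, D6 and 7F. All 3 null values were below the lowest control. Such non-overlap was a condition for naming the gene, and 28.4% of all genes tested and 19.3% of members had it at DIV4. The log2 change of Cox7c was -1.17 ± 0.23 (adjusted p = 0.00972, limma). Its pseudogene Gm12338 was more abundant, at 184 to 391 in controls and 136 to 172 in nulls when taken with the nearly silent copy Gm10012. Cox7c plus these copies was also called lower in the null clones, with a log2 change of -0.90 ± 0.22 (adjusted p = 0.0284, limma). Ndufa11 was at 12.1, 8.38 and 10.4 in controls and at 6.06, 5.46 and 6.04 in nulls, also without overlap. Its log2 change was -0.12 in OPCs, -0.40 at DIV2 and -0.71 ± 0.14 at DIV4, and only the last was called (adjusted p = 0.00887, limma). Whether the difference changed between stages was tested as an interaction between genotype and stage, and neither gene was called there. In a fit on the 6 DIV4 libraries alone (0.933% of all genes higher, 0.779% lower) only Ndufs5 was called, with adjusted p of 0.105 for Cox7c and 0.0894 for Ndufa11 in limma, and with the deposited TPM no member was called.

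At DIV4 the control clones differed among themselves. Control D7, with the high oligodendrocyte marker sum, had the highest level of every complex at DIV4 (complex IV 7.41, against 6.72 and 7.17 in D3 and E8), whereas control D3, whose marker sum of 1270 was the next highest of the 6, was below the 3 nulls in every complex (6.75 to 6.80 for complex IV). Without control D3, 13 members were lower at DIV4 (9.66% of all genes called in either direction), without null 3F only Ndufs5 was (1.16%), and without null 7F none was called (0.808%). Without control D7, Cox7c, Ndufa11 and Ndufs5 were the lower ones. As in OPCs, the summed OPC markers were lower in the null libraries without overlap at DIV2 (148 to 193, against 209 to 390) and at DIV4 (158 to 194, against 309 to 377). Taken singly, Olig1 was lower without overlap at both stages and Olig2 at DIV2 only. Pdgfra, Cspg4 and Sox10 overlapped at both stages, so the sums do not describe the whole marker set. The part of cell state in these differences was not tested.

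The promoters of the 3 genes that were lower in null cells at DIV4 are shown because Thap1 encodes a DNA-binding protein. They are from RefSeq (GRCm38.p6), 250 bases before to 50 after the annotated start, 5′ to 3′ on the gene's strand. Capitals mark matches on either strand to TNNNNGGCA, a loose THAP1 motif, or GCGCATGCG, the core motif of nuclear respiratory factor 1 (NRF1), where overlapping matches run together.
Ndufs5, chr4:123718137-123718436, minus strand: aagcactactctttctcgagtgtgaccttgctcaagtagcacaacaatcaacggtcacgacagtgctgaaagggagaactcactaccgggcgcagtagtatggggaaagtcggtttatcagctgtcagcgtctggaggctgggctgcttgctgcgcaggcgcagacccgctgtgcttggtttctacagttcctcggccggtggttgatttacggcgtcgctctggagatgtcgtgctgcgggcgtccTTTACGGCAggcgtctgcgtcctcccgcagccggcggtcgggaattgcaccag
Ndufa11, chr17:56717512-56717811, plus strand: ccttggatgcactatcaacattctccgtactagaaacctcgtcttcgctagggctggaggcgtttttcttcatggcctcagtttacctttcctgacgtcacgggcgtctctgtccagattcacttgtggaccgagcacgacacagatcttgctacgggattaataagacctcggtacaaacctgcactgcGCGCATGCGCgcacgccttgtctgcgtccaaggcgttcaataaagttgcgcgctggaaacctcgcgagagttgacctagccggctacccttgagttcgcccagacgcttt
Cox7c, chr13:86046746-86047045, minus strand: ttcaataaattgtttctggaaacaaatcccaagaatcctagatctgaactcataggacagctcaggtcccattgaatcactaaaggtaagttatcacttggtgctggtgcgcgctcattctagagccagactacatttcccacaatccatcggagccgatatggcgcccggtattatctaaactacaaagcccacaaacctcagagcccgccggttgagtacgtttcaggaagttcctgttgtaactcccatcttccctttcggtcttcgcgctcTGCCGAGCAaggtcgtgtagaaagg

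Ndufs5 and Cox7c each held a match to the loose THAP1 motif, and Ndufa11 held the NRF1 motif. The loose THAP1 motif was found for 35 of the 76 members with a promoter in the table (46.1%), against 47.2% of all 27025 genes, so a match is no distinction. The NRF1 motif was found for 13.2% of members and 1.95% of the same 27025 genes. The ETS motif CCGGAAG, bound by the GA-binding protein family, was found for 22.4% and 9.93%, and the motif AANATGGCG of YY1 for 14.5% and 2.76%. NRF1, the GA-binding protein and YY1 are known regulators of respiratory genes. The 27025 genes were not limited to the 10400 tested, so these shares do not compare members with other expressed genes. A match describes the letters only.

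Of the 9 comparisons, the members' median lay farthest from 0 in the null clones between DIV2 and DIV4. The median change was -0.44 over the members, against -0.03 over all genes, and 79 of 83 members had a negative change. All 3 null clones were lower at DIV4 than at DIV2 for 73 of 83 members, against 35.9% of all genes tested. By complex, the medians were -0.64 for complex IV, -0.46 for complex III, -0.45 for complex V, -0.44 for complex I and -0.26 for complex II, and all 12 subunits of complex IV, all 8 of complex III and all 14 of complex V had negative values. Across clones the mean change over the 74 subunits was -0.44 in 3F, -0.56 in D6 and -0.44 in 7F, and 0.00, -0.28 and -0.09 in control D7, D3 and E8. Marker levels differed at the same step. The summed astrocyte markers were between 5.88 and 9.59 in the null libraries at DIV2 and between 85.9 and 139 at DIV4. Most of the null DIV4 sums was Gfap, which went from 1.98, 6.34 and 3.18 in 3F, D6 and 7F to 81.1, 78.4 and 135. Slc1a2 also rose in each null clone, whereas Aldh1l1 fell in 3F and 7F. Aqp4 was at most 0.198 in these libraries, and Gjb6 was at 0. The sums were at 25.3 and 26.2 and then 132 and 273 in control D3 and E8, and at 0.952 and then 1.46 in control D7. The summed oligodendrocyte markers of the null clones were at 1116 to 1700 at DIV2 and 489 to 1149 at DIV4. The part of these markers' cell types in the members' values was not tested.

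Individually, 6 members fell in the null clones from DIV2 to DIV4 and 0 rose, with 1.25% of all genes called lower and 1.62% higher. They were Cox7c, Cox6b1, Ndufa4 and Cox5a of complex IV, Uqcrfs1 of complex III and Ndufs4 of complex I. Cox7c went from 57.3, 64.7 and 53.3 in 3F, D6 and 7F to 27.3, 27.8 and 22.2, which is -1.15 ± 0.23 (adjusted p = 0.0194, limma). Cox6b1, which lies at the interface of the complex IV dimer, went from 314, 337 and 312 to 183, 165 and 158, a change of -0.93 ± 0.18 (adjusted p = 0.0183). Uqcrfs1, the Rieske iron-sulfur protein of complex III, went from 52.3, 62.9 and 50.5 to 27.7, 35.8 and 26.9, a change of -0.86 ± 0.20 (adjusted p = 0.0329). In each of the 3 genes every clone was lower at DIV4. Ndufa4, now assigned to complex IV, Ndufs4, an accessory complex I subunit, and Cox5a, a nuclear-encoded subunit of complex IV, fell by 0.85, 0.77 and 0.63 on the log2 scale.

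The count depended on the scaling and on how the spread was estimated. With the deposited TPM and with the protein-coding total held equal 0 members were called (0.197% and 0.256% of all genes lower), with medians of -0.37 and -0.21 over the members and 0.03 and 0.20 over all genes, while quantile normalization gave 4 lower members (1.18% of all genes lower) and a median of -0.20. When clones were blocked, 11 members fell (2.57% of all genes lower), Ndufa4 was not among them, and a fit on the 6 null libraries alone called 45 members lower (12.2% of all genes). Leaving out any 1 null clone left 0 members called (0.0288 to 0.115% of all genes in either direction), while without control D7 there were 19 (8.89%) and without control D3 16 (5.64%). The median change ran from -0.46 to -0.40 when any clone was left out. Summed with their pseudogene copies, the same 6 members were called.

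In the same interval, 0 members were called in the control clones, where 0.173% of all genes were called higher and 0.0769% lower. At an unadjusted p under 0.05 limma gave 4 members there, and 1139 of the 10400 genes tested. The median change was -0.11, and 63 of 83 members had a negative value. The direct test of whether the 2 genotypes changed differently from DIV2 to DIV4 called 0 members and 0 genes of 10400 (0.0% higher and 0.0% lower), with 5 members at an unadjusted p under 0.05, against 5.16% of all genes. The median interaction over the members was -0.28, against 0.00 over all genes, and Cox7c was at -1.17 ± 0.33 (adjusted p = 0.664, limma). The lower values of the null clones at this step therefore describe 3 against 3 clones, and no single gene passed the test of a difference between genotypes.

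**Figure D3:**
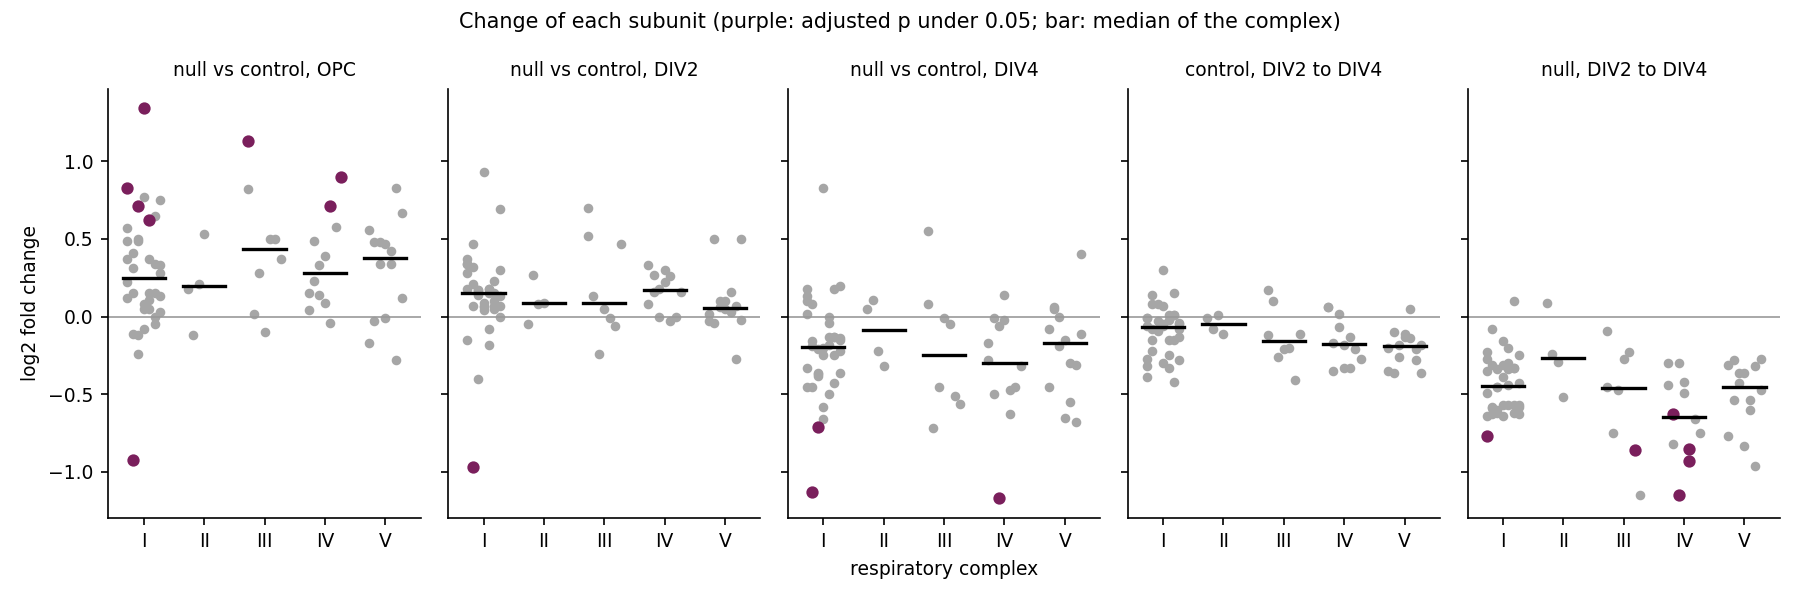
Log2 fold change (y axis) of each tested subunit by complex (x axis) for 5 comparisons, with called subunits in purple and black bars for the median of each complex. The medians are above 0 in OPCs, below 0 at DIV4 and lowest for complex IV (-0.64) in the null clones from DIV2 to DIV4.

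Respiratory genes have short transcripts. The medians of other short genes had the sign of the members' median in every comparison except control OPC to DIV2. The main coding transcript had a median length of 714 bases for the 83 members and 2852 bases for all genes. Among genes that are not members, those under 1000 bases had a median change of -0.26 in the null clones from DIV2 to DIV4, against -0.07 from 1000 to under 3000 bases and 0.04 from 3000 bases upward. For null against control the short genes were at 0.19 in OPCs and -0.17 at DIV4, where the members were at 0.28 and -0.17. In the control clones from OPC to DIV2 the signs differed, with -0.14 for the short genes and 0.03 for the members. The part of transcript length in the members' medians was not tested.

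From OPC to DIV2, the step at which most genes were called, few members changed. In the control clones 2 rose and 1 fell, with 21.3% of all genes higher and 18.7% lower. Ndufs1, the largest core subunit of complex I, went from 22.4, 21.1 and 21.2 in D7, D3 and E8 to 34.4, 31.1 and 35.3, a change of 0.61 ± 0.14 (adjusted p = 0.00265, limma). Atp5o, the subunit that joins the stalk of the ATP synthase to its catalytic head, went from 171, 138 and 142 to 121, 89.7 and 95.3, a change of -0.56 ± 0.15 (adjusted p = 0.00886). In both genes the stages did not overlap, which was a condition for naming them. Of all genes tested 46.0% had no overlap at this step, and 13.3% of members. Atp5l was called higher as well (0.71 ± 0.26, adjusted p = 0.0414), but its stages overlapped and it was not called when summed with its copies (adjusted p = 0.306). In a fit on the 6 control libraries of these stages alone (13.1% of all genes higher, 9.53% lower) Ndufs1 was called, Atp5o and Atp5l were not (adjusted p = 0.0729 and 0.151, limma), and Ndufaf5 was called lower. The share of members called, 3 of 83, was well below the background. With the deposited TPM 84 members were higher and 0 lower (89.9% and 0.582% of all genes), and with the protein-coding total held equal 55 and 1 (45.7% and 5.51%). With quantile normalization there were 15 and 9 (20.9% and 19.2%). Without control D3, 16 members were called (43.2% of all genes in either direction). The clone block gave 2 higher and 4 lower members (24.1% and 21.0% of all genes), and control D3 and E8 moved in opposite directions, with mean changes over all subunits of -0.37 and 0.40.

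In the null clones, 3 members fell and 0 rose from OPC to DIV2, with 17.7% of all genes higher and 15.6% lower. Atp5o fell here too, from 151, 174 and 165 in 3F, D6 and 7F to 91.6, 108 and 100, a change of -0.70 ± 0.15 (adjusted p = 0.00255, limma). Sdhd, a membrane anchor of complex II, went from 49.7, 65.1 and 59.6 to 38.3, 43.3 and 43.1 (-0.47 ± 0.17, adjusted p = 0.0453). Ndufaf5, an assembly factor of complex I, went from 10.4, 7.97 and 12 to 6.29, 5.99 and 5.85 (-0.65 ± 0.20, adjusted p = 0.0226). With the clone block, 7 members fell (17.8% of all genes lower). The number called was 7 without control D3 and 1 without null 3F or without null 7F (37.1%, 15.3% and 16.9% of all genes in either direction), and quantile normalization gave 13 higher and 4 lower (17.6% and 15.5% of all genes). The interaction for this step called 0 members (limma; 3 at an unadjusted p under 0.05, against 13.8% of all genes), with 0.202% of all genes called higher and 0.0769% lower.

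A group of 4 members lay on chromosome 11, where the control clones differed. Uqcr10, Uqcrq, Atp5g1 and Atp5h are the only tested members on chromosome 11. Uqcrq, a small subunit of complex III, was at 102, 76.1 and 47.3 in control D7, D3 and E8 OPCs and at 101, 146 and 139 in null 3F, D6 and 7F OPCs. At DIV2 it was at 127, 66.6 and 76.3 in controls and 121, 140 and 114 in nulls, and at DIV4 at 107, 67.6 and 69.5 and 114, 123 and 113. Control D3 and E8 lay below all nulls at each stage, whereas D7 lay within their range in OPCs and at DIV2 and just below it at DIV4. Atp5g1, a gene for the c subunit of the ATP synthase, had D3 and E8 below the nulls as well, with 132, 75.5 and 87.0 in the controls at DIV2 and 119, 155 and 134 in the nulls.

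The median deviation of these 4 members from the mean of their stage was -0.39, -0.61 and -0.54 in control D3 and -0.88, -0.43 and -0.28 in control E8 in OPCs, DIV2 and DIV4. It was 0.12, 0.22 and 0.43 in control D7 and 0.09 to 0.53 in the nulls. The 79 members on other chromosomes were at 0.08, -0.21 and -0.21 in D3 and at -0.48, -0.03 and 0.14 in E8, in OPCs, DIV2 and DIV4, and so were also below 0 in E8 OPCs and in D3 at DIV2 and DIV4. All 841 tested genes on chromosome 11 showed the same split, with medians of -0.34 to -0.24 in D3 and E8 and 0.06 to 0.20 in D7 and the nulls. On every other chromosome the medians stayed between -0.15 and 0.14.

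Calls changed when control D7 was left out. At DIV2 this left 4 members higher in the null clones (3.85% of all genes), which were these 4, with log2 changes of 0.73 to 0.96. In OPCs 15 members were then higher, the 4 among them (11% of all genes), and at DIV4 Atp5g1 and Uqcrq (4.77%). Without control E8, Uqcr10 was not called in OPCs. What differs on chromosome 11 between the clones was not tested.

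**Figure D4:**
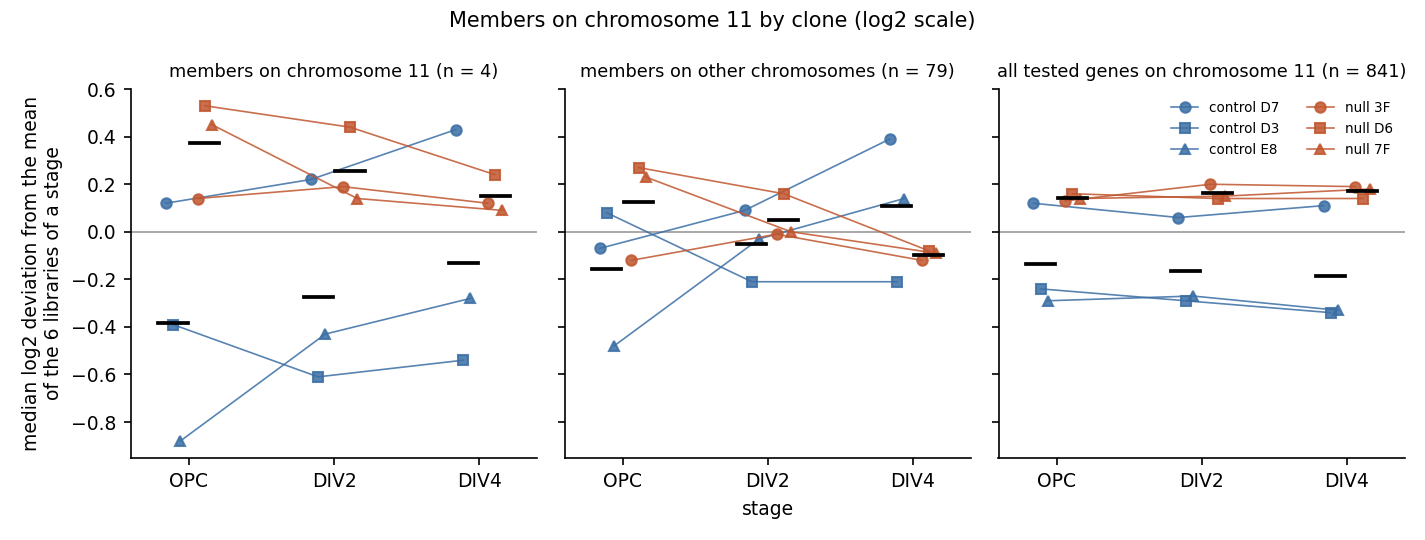
Median log2 deviation from the mean of the 6 libraries of a stage (y axis) by stage (x axis), for the 4 members on chromosome 11, the 79 on other chromosomes and all 841 tested genes on chromosome 11, 1 point per library and black bars for group means. Control D3 and E8 lie below 0 in the first and last panels at every stage, and control D7 lies above 0 with the nulls.

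Among tissue-specific alternatives, the widely expressed form dominated throughout. Cox4i1 was at 174 to 351, and Cox4i2, known from lung and low oxygen, was at most 0.314. Cox6a1 was at 144 to 265 and the heart and muscle form Cox6a2 at most 0.540. Cox6b1 averaged 294 and the testis form Cox6b2 0.495. Cox7a2 and Cox7a2l averaged 123 and 93.9, and the muscle form Cox7a1 0.752. Cox7b averaged 55.0 and Cox7b2 0.0832, Cox8a averaged 322 and Cox8b 0.0530, and Cox8c was listed at 0 in all 18 libraries. Ndufa4 averaged 333 and its paralog Ndufa4l2, known as a hypoxia-responsive gene, 0.152. No alternative form reached the mean of 1 set for the main fit, so a change of form with genotype or stage was not tested there. Low values did vary. Cox6a2 was at 0 in every OPC and DIV2 library and at 0.0741 to 0.540 at DIV4. Ndufa4l2 was at 0.527 to 0.544 in null DIV4 libraries, at 0 to 0.435 in control DIV4 libraries and at most 0.149 at earlier stages.

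The other genes of the pathway were read from lists. Of the 12 tested subunits encoded in mitochondrial DNA, 8 were higher in null OPCs (median change 0.87) and 0 lower, against 5.92% and 5.95% of all genes. mt-Cytb, the mitochondrially encoded core of complex III, was at 248, 258 and 210 in control and 383, 424 and 513 in null OPCs, a change of 0.88 ± 0.17 (adjusted p = 0.00488, limma). From OPC to DIV2, 8 of these 12 fell in the null clones (median -0.61), against 15.6% of all genes. In controls 1 rose and 2 fell (21.3% and 18.7% of all genes). At DIV2 none was called between genotypes, and at DIV4 1 was lower (mt-Nd5, -0.47 ± 0.13, adjusted p = 0.0499). Cycs, cytochrome c, was higher in null OPCs by 0.51 ± 0.14 (adjusted p = 0.0278), and Cyc1, cytochrome c1, was not called in any comparison.

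Among 37 tested assembly factors, against the same background in OPCs (5.92% higher, 5.95% lower), 5 were higher in null OPCs (Cmc1, Coa5, Cox11, Cox16 and Cox17) and 1 was lower, Oxa1l, which inserts proteins into the inner membrane (-0.61 ± 0.11, adjusted p = 0.00319). Cox11, which delivers copper to complex IV, was higher at DIV4 as well (0.62 ± 0.16, adjusted p = 0.0404). From DIV2 to DIV4 no assembly factor was called in either genotype, and their median change in the null clones was -0.11, against -0.44 for the members. Of 12 tested regulators of mitochondrial transcription and biogenesis, none was called between genotypes at any stage. From OPC to DIV2, 3 regulators fell in the controls and 4 in the nulls, with 18.7% and 15.6% of all genes lower. Among them, Nrf1 fell in the controls by 0.92 on the log2 scale (adjusted p = 6.82e-05, limma) and in the nulls by 0.45 (adjusted p = 0.0101). Tfam fell in the controls by 0.77, and Polg fell in both. Of 12 citric acid cycle genes, Fh1 and Sucla2 were higher in null OPCs, and none was called at DIV2 or DIV4 between genotypes.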

How the data were processed

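Total RNA was depleted of ribosomal RNA and sequenced with a strand-keeping kit, per the labels' protocols. STAR, Picard and the mm10 build are named in the submitters' processing notes. The quantifier, annotation and strand setting are not given in the sources used here. The authors deposited TPM values for 93666 transcripts in 18 libraries, each library summing to 1000000. The depth is unknown, so no counting interval is given.

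Protein-coding transcripts were summed by symbol and divided by median-of-ratios factors from 12320 genes above 0 in all libraries. Genes with a mean of at least 1 were tested as log2(value + 1), a scale that understates changes of low genes, with limma 3.58.1 (R 4.3.3, empirical Bayes with trend) on 6 group means over all 18 libraries. Genes were called at a Benjamini-Hochberg adjusted p under 0.05. Intervals are 95%. Sequence sharing was counted in words of 31 bases of GENCODE M21 transcripts (GRCm38). The fit was run on simulated data with known changes and independent libraries. That does not show how it behaves with several libraries of the same clone or with unequal scaling.

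Clones within a genotype are separate lines, and whether each was grown more than once is not stated. The replicate number is the clone, named in the titles, so the same line pairs stages. Deviations from group means correlated on average 0.285 (0.026 to 0.653) within a clone over 18 pairs and -0.14 between clones. Deviations from a group mean cancel over its clones, so the between-clone value largely follows from the within-clone one. Blocked counts and lost calls are given beside the stage results they change.

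The named genes were the core subunits, the paralog sets and, per comparison, the 3 largest called changes in each direction with a mean of at least 5 and groups without overlap; Ndufa5, Ndufa9, Ndufc1, Ndufs4, Atp5s, Atp5l, Uqcrq, Atp5h, the pseudogenes and the genes of other lists were described after their values were seen. The members and lists were chosen with earlier results of these data known. Of the core subunits and the cell type markers, 1 gene each is not reported here; the marker was left out of its sum.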

Additional observations from a re-analysis of the deposited data

Results flagged for a closer look

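BC002163, the processed pseudogene copy of Ndufs5, lies outside the protein-coding rows that were compared, and it carried a signal above every control library in all 9 null libraries. Its mean rescaled TPM was 64.8 in null OPCs, 63.5 in null DIV2 and 50.7 in null DIV4 libraries (n = 3 each), against 1.25, 0.271 and 0.0946 in the controls. The transcript that carries these values in the deposited table is not in the annotation used here. The source of the signal was not tested. Groups of 3 libraries were not tested for outlying samples.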

How the results depend on the processing

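The depth behind each value is unknown, and 3 clones per group limit every test. Scaling mattered most for control OPCs. With the deposited TPM the median of all genes moved to 1.49 for null against control OPCs, 1.99 for control OPC to DIV2, 0.36 for null OPC to DIV2 and -1.66 for their interaction, and members called became 83, 84, 0 and 83 (all higher, all higher, none, all lower), with member medians of 2.27, 2.62, 0.29 and -2.29. The same setting gave 0 members at DIV2, at DIV4 and from DIV2 to DIV4 in the nulls, where the median was -0.37. With the protein-coding total set to 1000000, the medians of all genes were 0.41, 0.62, 0.18 and -0.46 and 45 (all higher), 56 (55 higher, 1 lower), 1 and 1 members were called, with member medians of 0.70, 0.70, 0.07 and -0.61; for null DIV2 to DIV4 it called 0 (median -0.21), and its interaction median was -0.13. Relative to all genes the members' median for null DIV2 to DIV4 was -0.41, -0.40 and -0.41 on the 3 scales. Quantile normalization called 9 members at DIV4 (3 higher, 6 lower), 24 in control OPC to DIV2 (15 higher, 9 lower) and 17 in null OPC to DIV2 (13 higher, 4 lower), and gave medians of -0.20 for null DIV2 to DIV4 and -0.14 for its interaction.

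Ndufs5 changed sign in OPCs with deposited TPM (1.15) and, with copies added, in OPCs (0.27) and at DIV2 (0.14); Atp5o in control OPC to DIV2 changed sign with deposited TPM (2.14) and with the protein-coding total (0.11). Without a filter 5 members were called in OPCs and the null DIV2 to DIV4 median was -0.38. Factors from all biotypes gave 3 members for null DIV2 to DIV4, all lower (0.789% of all genes lower), and summing every biotype gave 2. The shares of all genes called without a filter and with every biotype summed are not given here. Those 2 counts are therefore not read as results about the members. Fits on only the groups compared called 0 members at OPC (0.394% of all genes higher, 0.5% lower). They called 2 at DIV2 (3.13% and 2.82%) and 1 at DIV4 (0.933% and 0.779%). In null OPC to DIV2 they called 7, all lower (20.0% of all genes lower). In null DIV2 to DIV4 they called 45, all lower (12.2%). Adding copies, an alternative chosen after seeing the data as was leaving chromosome 11 out of the factors, called 0 at DIV2.

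The clone as a fixed replicate block called 6 members in control OPC to DIV2, 7 in null OPC to DIV2 and 11 in null DIV2 to DIV4; as a random replicate block it called 9, 1 and 3 between genotypes, as without it, and the block changed no other call count by over 1.5 times. Leaving out 1 clone gave 0 to 25 members at OPC (1.72 to 21.0% of all genes in either direction). It gave 0 to 5 at DIV2 (0.885 to 6.75%) and 0 to 13 at DIV4 (0.808 to 9.66%). It gave 2 to 16 in control OPC to DIV2 (25.4 to 43.2%) and 1 to 7 in null OPC to DIV2 (15.3 to 39.2%). For null DIV2 to DIV4 it gave 0 to 19 (0.0288 to 8.89%). The causes were not tested. Of 855 complex medians under alternatives, 781 moved by less than 1 SD between clones. Of 474 gene results, 329 kept direction and call, 140 lost the call and 5 changed sign.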
